A study of Homo sapiens with 6 samples.

Results

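The F-box proteins and cullins build the cullin-RING ubiquitin ligases, and the genes described here are 67 identifiers (66 symbols) among the 16834 genes of the table. They were chosen by symbol and not by a measured value: every FBXL, FBXO and FBXW gene with a number after these letters, with 1 FBXO gene left out by the rule, and the cullins CUL1, CUL2, CUL3, CUL4B, CUL5, CUL7 and CUL9 with SKP1, RBX1 and RNF7. The F-box genes number 57, of which 17 are FBXL, 33 are FBXO and 7 are FBXW, and the scaffold, adaptor and RING genes number 10. RNA was recovered by immunoprecipitation (IP) from HEK293-T Flp-In cells, a human embryonic kidney line with a recombination site that holds a single copy of the construct ccTaggedRP. All 6 libraries came from asynchronously cycling cells of this stable line, which expresses both tagged ribosomal proteins from a CAG promoter as a single polypeptide that cleaves itself. The 3 Flag-IPs were made with an antibody to the Flag tag of Flag-RPL10a-hCdt, which carries a piece of Cdt1 that is degraded from late S phase through mitosis, and the 3 HA-IPs with an antibody to the HA tag of HA-RPL10a-hGem, which carries a piece of Geminin that is degraded in G1 and early S phase. The comparison asks which transcripts were recovered more with the HA-tagged than with the Flag-tagged ribosomes. The paper predicts the Flag protein in G1 and S phase and the HA protein in S phase and G2/M, so S phase is shared. The groups differ in tag and antibody as well as in degron, and the effects of these cannot be told apart here. A cell line that makes both proteins also holds cells positive for both tags, so the groups are 2 pulldowns of a mixed culture and not separated cells, and no input RNA was analysed here.

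In a cullin-RING ligase, a long cullin scaffold binds a small RING protein, RBX1 or RNF7, at 1 end and a substrate receptor at the other. CUL1 holds its receptors, the F-box proteins, through the adaptor SKP1, and the leucine-rich repeats of the FBXL class, the WD40 repeats of the FBXW class or other domains of the FBXO class select the substrate. The ligase is switched on when NEDD8 is joined to the cullin and off when the COP9 signalosome removes it, and these ligases degrade cyclins, CDK inhibitors and other regulators of the cell cycle.

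The 3 small genes of the ligase core, RBX1, RNF7 and SKP1, were higher in the Flag-IPs, while the scaffolds CUL1 and CUL2 were higher in the HA-IPs. Of the F-box genes, FBXO38 and FBXO42 were higher in the HA-IPs and FBXL14, FBXW2, FBXL7 and FBXO40 in the Flag-IPs. FBXO40, an F-box gene known from heart and skeletal muscle, had nearly all of its reads in the Flag-IPs. The other 56 genes did not pass the test.

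The RefSeq promoter table (GRCh38.p14) held 52 of the 66 symbols in 81 windows. The sequences of 4 genes that moved toward the Flag-IPs are shown, to set the muscle gene FBXO40 beside the small subunits RBX1, RNF7 and SKP1, all of which have 1 RefSeq start. Each runs 5′ to 3′ on the strand of the gene over 150 bases and stops 50 bases before the RefSeq start. The windows are chr3:121593179-121593328 (+) for FBXO40, chr22:40951178-40951327 (+) for RBX1, chr3:141738098-141738247 (+) for RNF7 and chr5:134177001-134177150 (-) for SKP1. Capitals mark matches on either strand to the TATA box TATAAA, the CCAAT box CCAAT, the GC box GGGCGG, the E-box CANNTG, the E2F-like letters TTTNGCGC or the CHR element TTTGAA, where N is any base and neighbouring matches can overlap.
FBXO40: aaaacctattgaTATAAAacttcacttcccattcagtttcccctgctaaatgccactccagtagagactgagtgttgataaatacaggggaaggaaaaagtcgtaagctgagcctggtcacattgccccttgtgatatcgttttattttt
RBX1: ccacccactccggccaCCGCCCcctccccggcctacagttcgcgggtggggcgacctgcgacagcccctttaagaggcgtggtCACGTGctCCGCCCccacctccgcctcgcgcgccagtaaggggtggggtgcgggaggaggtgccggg
RNF7: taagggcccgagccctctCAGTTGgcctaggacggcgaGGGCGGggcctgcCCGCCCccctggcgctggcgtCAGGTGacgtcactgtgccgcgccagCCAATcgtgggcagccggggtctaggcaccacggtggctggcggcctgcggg
SKP1: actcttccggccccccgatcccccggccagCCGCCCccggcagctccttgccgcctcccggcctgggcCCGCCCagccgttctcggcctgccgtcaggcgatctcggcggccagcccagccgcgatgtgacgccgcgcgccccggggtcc

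The GC box letters were present 2 times in each of the RBX1, RNF7 and SKP1 windows and not in that of FBXO40. The FBXO40 window held the TATAAA letters, near its end farther from the start. Over the member windows the GC box letters were found in 38 of 81 (46.9%), against 31.4% of all 35116 windows of the same length in the table. The E-box letters were found in 34 member windows (42.0%, against 45.0%) and the CCAAT letters in 14 (17.3%, against 23.1%). In the member windows the letters tied to cell cycle promoters were rare, with TTTGAA in 3 (3.7%, against 8.22%) and TTTNGCGC in 0 (against 0.937%). The 50 bases before the start and those after it were not searched, so these shares do not cover them. Such matches describe the letters only, and several windows of a gene can overlap.

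The libraries held 23174532 to 44134833 reads on the listed genes. Values are normalized counts, which are reads divided by a size factor per library, and differences are log2(normalized count + 1) of the HA-IPs minus the Flag-IPs with the standard error (SE) of limma. A gene was called at an adjusted p of at most 0.05 over all 16834 genes. The labels do not say that the replicates came from separate cultures, so p-values measure the spread between these libraries, which may be technical. Epithelial markers of this line were measured in both groups, with a sum over 7 of 7 genes of 21142 to 22042 in the Flag-IPs against 24254 to 24623 in the HA-IPs. Of 12 kidney markers 7 were in the table, and 1 passed toward the HA-IPs (5.79% over all genes) and 4 toward the Flag-IPs (7.1%). The 4 were SLC34A1 (difference -4.25), SLC12A1 (-3.94), PAX8 (-3.57) and PAX2 (-0.79). The table asks for 10 reads in 3 libraries, which SLC34A1, SLC12A1 and PAX8 reached through the Flag-IPs alone. They had at most 5.94, 4.95 and 4.41 normalized counts in any HA-IP, and at these levels a listed gene had to differ. Of the 7 epithelial markers, 2 passed toward the HA-IPs and 0 toward the Flag-IPs. Heart muscle markers also stood far apart between the groups and are given beside FBXO40.

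Among the 67 genes, 11 were called (16.4%), against 12.9% of all genes tested. Toward the HA-IPs 4 passed (5.97%, where all genes gave 5.79%), and toward the Flag-IPs 7 passed (10.4%, where all genes gave 7.1%). The values of the Flag-IP and HA-IP libraries did not overlap for 23 genes (34.3%), against 32.2% of all genes. The median difference was 0.0065 over the 67 genes and -0.0049 over all genes. With every library scaled to the same total, 2 of the 67 passed toward the HA-IPs and 9 toward the Flag-IPs, and over all genes the split moved from 975 and 1196 to 471 and 1576. The shares of the 67 genes thus lay near those of all genes. The 58 genes whose mean reached 50 normalized counts included 9 of the 11 called genes (15.5%, where 14.4% of all genes at that level were called), and the plot of difference against level shows that the remaining FBXO40 and FBXL7 are low in level.

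**Figure D1:**
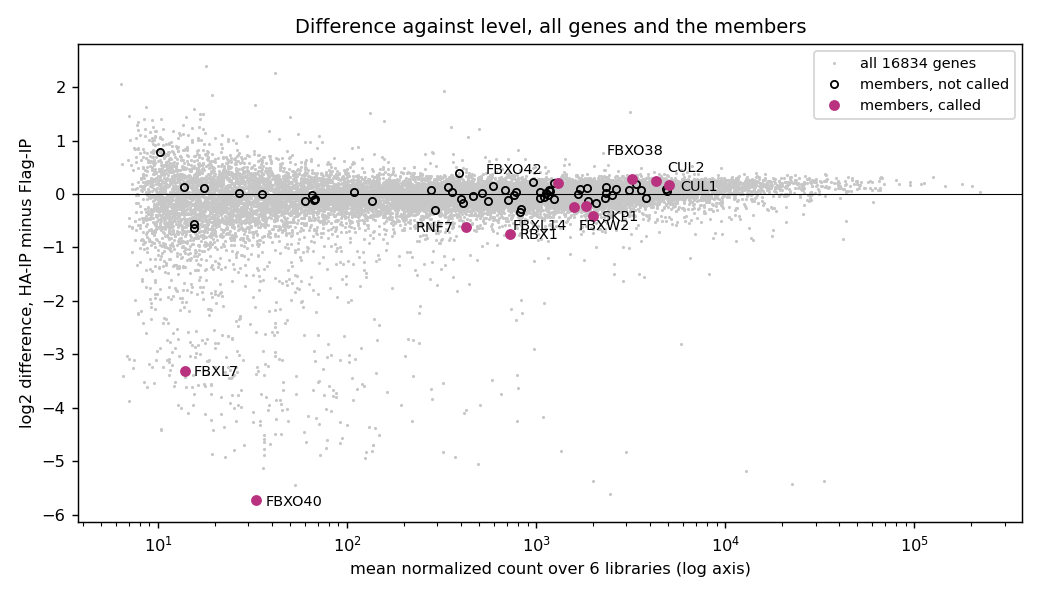
Difference between the groups (log2, HA-IP minus Flag-IP) against the mean normalized count over the 6 libraries (log axis), with all 16834 genes in grey, members that were not called as open circles and called members filled and named. FBXO40 and FBXL7 lie far below the rest at a low level, and the 9 other called genes lie between -0.75 and 0.29 at means above 400 normalized counts.

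RBX1 (chr22:40951347-40973309, GRCh38), the RING protein that brings the charged E2 enzyme to CUL1 to CUL4 ligases, had 1103, 868 and 771 normalized counts in the Flag-IPs against 468, 511 and 654 in the HA-IPs. Every Flag-IP was above every HA-IP, with the nearest values in Flag-IP replicate 3 and HA-IP replicate 3. The difference was -0.75 (SE 0.14, limma adjusted p = 0.0069), and it passed in 6 of 6 fits that left out a library. RNF7 (chr3:141738249-141747560), the RING partner of CUL5, had 645, 491 and 417 in the Flag-IPs against 319, 307 and 375 in the HA-IPs, again with no overlap. Its difference was -0.61 (SE 0.14, limma adjusted p = 0.0182), and the call was lost without Flag-IP replicate 2, HA-IP replicate 1 or HA-IP replicate 2 (-0.76 to -0.44 over the 6 fits). SKP1 (chr5:134148935-134176964), which links CUL1 to the F-box, had 2787, 2133 and 1970 against 1665, 1710 and 1761. Its difference was -0.41 (SE 0.10, limma adjusted p = 0.0252), and the call held only without Flag-IP replicate 1 or 3 (-0.51 to -0.26 over the 6 fits). For these 3 genes Flag-IP replicate 1 was the highest library, and Flag-IP replicate 3 the lowest of its group, while HA-IP replicate 3 was the highest of its group. Of all 1196 genes called higher in the Flag-IPs, 765 also had Flag-IP replicate 1 as the highest Flag-IP, so this is not particular to the 3. The summed heart muscle markers had the same highest library in each group, and their part in these differences was not tested.

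CUL1 (chr7:148697914-148801110), the scaffold of the F-box ligases, had 4814, 4678 and 4817 normalized counts in the Flag-IPs against 5320, 5319 and 5401 in the HA-IPs. The replicates were tight (4769 ± 79.5 against 5347 ± 46.8, SD, n = 3 each), and the difference of 0.16 (SE 0.044) was called with a limma adjusted p of 0.0319. CUL2 (chr10:35008504-35127006), the scaffold of the von Hippel-Lindau ligase, had 3877, 3826 and 4152 against 4682, 4497 and 4786. Its difference was 0.24 (SE 0.051, limma adjusted p = 0.0129). Both scaffolds were higher in every HA-IP than in every Flag-IP, by a smaller amount than the RING genes differed in the other direction. Their calls depended on the libraries, since CUL1 passed in 2 of 6 and CUL2 in 3 of 6 fits that left out a library, with differences of 0.15 to 0.17 and 0.21 to 0.27. CUL1 was lost without Flag-IP replicate 2 or any of the HA-IPs, and CUL2 without Flag-IP replicate 2, HA-IP replicate 1 or HA-IP replicate 3. CUL1 was also lost under quantile normalization (0.12, limma adjusted p = 0.0967) and under the same total per library (0.11, limma adjusted p = 0.113).

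**Figure D2:**
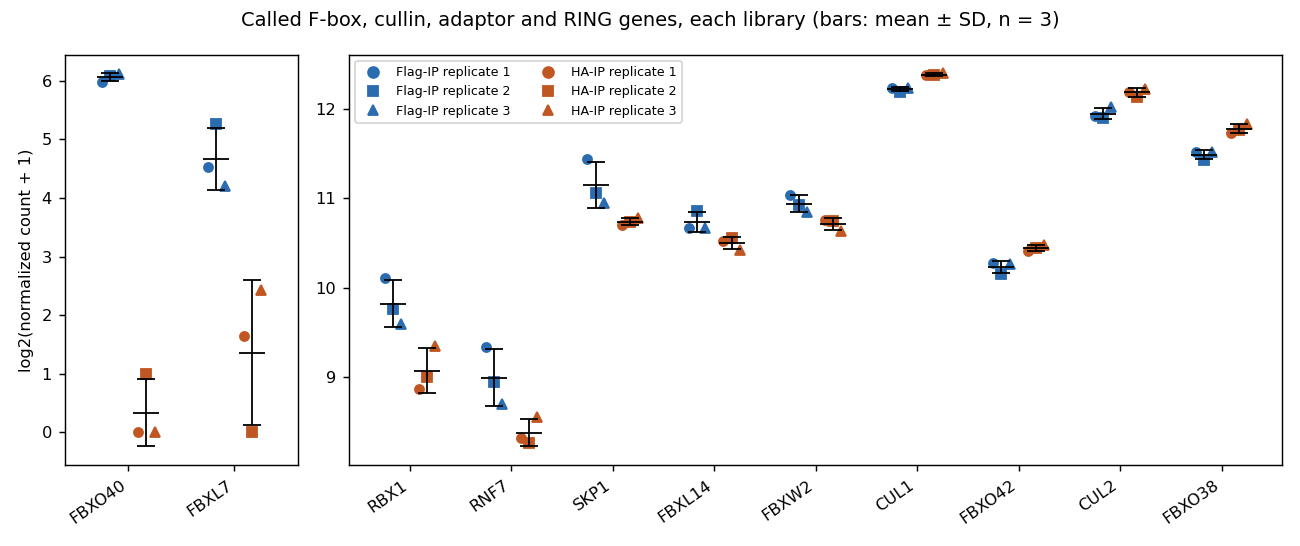
Level of the 11 called genes in each library, as log2(normalized count + 1), with Flag-IPs in blue and HA-IPs in orange, a symbol for each replicate and black bars for the mean ± SD (n = 3). FBXO40 and FBXL7 are on a separate axis at the left because their levels are far lower, and in all 11 genes the libraries of the groups do not overlap.

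The other 5 cullins were not called. CUL7, the scaffold that pairs with FBXW8, had 2882, 3192 and 3403 normalized counts in the Flag-IPs against 3559, 3733 and 3523 in the HA-IPs. Its groups did not overlap, yet the difference of 0.19 missed the threshold (SE 0.063, limma adjusted p = 0.0671). CUL7 was called with GC and length trends removed (limma adjusted p = 0.0189) and without Flag-IP replicate 3 (limma adjusted p = 0.0127). CUL4B, a scaffold of the DDB1 ligases, also had groups apart, at 3456, 3420 and 3522 against 3668, 3562 and 3771 (difference 0.08, limma adjusted p = 0.303). CUL9, a large cytoplasmic relative that binds p53, differed by 0.12 (limma adjusted p = 0.262). CUL5, the scaffold of the SOCS box ligases, differed by 0.01 (limma adjusted p = 0.964) and CUL3, the scaffold of the BTB receptors, by -0.07 (limma adjusted p = 0.491). In all, 5 of the 10 core genes were called, where 12.9% of all genes and 14.4% of those with a mean of at least 50 were. Of the 10, 7 had groups apart, where 32.2% of all genes and 35.4% of those at that level did. These shares make no allowance for coding length, which is described further below. The 5 calls fell to 1 without Flag-IP replicate 2 or HA-IP replicate 1 and to 2 without HA-IP replicate 2 or HA-IP replicate 3.

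Per kilobase of the Ensembl canonical transcript, CUL1 had the highest level of the 67 genes (1607 normalized counts per kb over the 6 libraries), followed by FBXO7 (1510), FBXO17 (1198), FBXL19 (1081) and CUL2 (1029). Among the other core genes, CUL7 (626), RBX1 (624), CUL4B (603) and CUL3 (562) lay close together, and CUL5 (269), CUL9 (239), SKP1 (214) and RNF7 (160) were lower. The order of RBX1 and CUL7 depended on the group, with 782 ± 146 per kb for RBX1 and 584 ± 48.5 for CUL7 in the Flag-IPs (SD, n = 3) and 466 ± 83.3 and 667 ± 20.7 in the HA-IPs. The FBXO7 and CUL1 levels overlapped in the Flag-IPs (1470 ± 124 and 1516 ± 25.3). The level of SKP1 rests on a canonical transcript of 9386 nt for a coding length of 489 nt, so its value per kb would be higher for a shorter transcript form. The lowest levels per kb over the 6 libraries were those of FBXO40 (5.84), FBXL13 (3.31) and FBXL7 (3.03). For FBXO40 this mean joins 11.6 in the Flag-IPs with 0.058 in the HA-IPs. Among the Flag-IPs alone it lay above FBXO24 (5.93), FBXL7 (5.59), FBXO15 (4.33) and FBXL13 (4.01).

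FBXO38 (chr5:148383935-148442836), known for marking the T cell receptor PD-1 for degradation, had the largest difference toward the HA-IPs among the called genes. It had 2941, 2753 and 2937 normalized counts in the Flag-IPs against 3410, 3474 and 3653 in the HA-IPs, a difference of 0.29 (SE 0.052, limma adjusted p = 0.00578) that passed in 6 of 6 fits without a library. FBXO42 (chr1:16246840-16352480), which acts on p53, had 1244, 1143 and 1234 against 1362, 1392 and 1425. Its difference of 0.21 (SE 0.06, limma adjusted p = 0.0421) passed in 2 of 6 such fits (0.17 to 0.23), and with trends of GC content and length removed its adjusted p was 0.0502. FBXW2 (chr9:120751978-120793416), first known for the placental factor GCM1, had 2103, 1945 and 1849 in the Flag-IPs against 1732, 1715 and 1593 in the HA-IPs. It differed by -0.23 (SE 0.063, limma adjusted p = 0.0384) and passed in 1 of 6 fits, the one without Flag-IP replicate 3 (-0.27 to -0.18). FBXL14 (chr12:1565993-1594581), which targets transcription factors of the Snail family, had 1634, 1859 and 1629 against 1475, 1504 and 1371. It differed by -0.23 (SE 0.068, limma adjusted p = 0.0436) and passed in 2 of 6 fits (-0.27 to -0.17). FBXO42 and FBXL14 were both lost without Flag-IP replicate 2 or any of the HA-IPs.

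FBXO40 (chr3:121593379-121630295), known for degrading the insulin receptor substrate IRS1 in muscle, had 62.3, 67.0 and 68.3 normalized counts in the Flag-IPs against 0, 0.99 and 0 in the HA-IPs. These values stand for 185 reads in the Flag-IPs against 1 read in the HA-IPs, a rate ratio of 221 with an exact 95% interval of 39.1 to 8763 that covers counting error only. The Flag-IPs varied little (65.9 ± 3.12, SD, n = 3), and limma called the gene with an adjusted p of 9.55e-05. FBXO40 and FBXL7 reached the 10 reads that the table asks for in 3 libraries through the Flag-IPs alone, so at these levels a listed gene of this kind had to differ, and the counts of calls draw no support from them. The other F-box genes known from striated muscle were not called. FBXO32, which encodes atrogin-1 and is induced in muscle wasting, had 473, 424 and 401 against 397, 363 and 400, and its groups were only just apart (difference -0.16, limma adjusted p = 0.3). FBXL22, which is enriched in heart muscle, had 11.7, 23.4 and 50.7 against 24.0, 19.8 and 30.9, with a difference of 0.02 (limma adjusted p = 0.986).

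Heart muscle markers moved with FBXO40. Of 30 markers 23 were in the table and 22 were called higher in the Flag-IPs (7.1% over all genes), with a median difference of -4.04. Like FBXO40, some were listed through the Flag-IPs alone, such as HRC (1.41, 0 and 3.31 normalized counts in the HA-IPs) and CASQ2 (0.71, 0.99 and 3.31). Such genes had to differ, and the counts of marker calls draw no support from them. The sum of the 23 markers was 150677, 107956 and 71173 normalized counts in the Flag-IPs against 3822, 2856 and 15410 in the HA-IPs. The cardiac myosin gene MYH7 alone had 83895, 65504 and 42902 in the Flag-IPs against 1031, 478 and 6766 in the HA-IPs, and 0 of the markers was at 0 in every HA-IP. Between the libraries of a group the match was not close. The sum of the markers was highest in Flag-IP replicate 1 and in HA-IP replicate 3, whereas FBXO40 was level over the Flag-IPs and had no read in HA-IP replicate 3. None of the 11 fast skeletal muscle markers was in the table. Markers of fibroblasts (6 of 8 in the table higher in the Flag-IPs), endothelium (5 of 8) and blood (2 of 3) moved in the same direction. Over all genes 7.1% were called that way. Among these markers FAP, TEK and TIE1 were also listed through the Flag-IPs alone. Of the neuron markers, 0 of 9 was called. Whether FBXO40 and the markers higher in the Flag-IPs come from the same RNA was not tested, nor was the source of that RNA. All libraries came from the stable HEK293-T line, and bulk RNA does not show which cells a transcript came from.

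FBXL7 (chr5:15500180-15939795), which targets Aurora A, had 22.1, 37.2 and 17.5 normalized counts in the Flag-IPs against 2.12, 0 and 4.41 in the HA-IPs. It had 71 reads in the Flag-IPs against 7 in the HA-IPs, a rate ratio of 12.1 (exact 95% interval 5.58 to 31.2, counting error only). The difference was -3.31 (SE 0.65, limma adjusted p = 0.00856), and the call was lost without Flag-IP replicate 2, which held the highest value (-3.85 to -2.63 over the 6 fits). Its HA-IPs held 3, 0 and 4 reads, too few to rank these libraries. In the Flag-IPs FBXL7 was highest in replicate 2, whereas the heart muscle markers were highest in replicate 1. FBXL13, a gene of cilia and the centrosome at a like level per kb, had 15.6, 12.8 and 27.7 against 7.92 to 16.5 and was not called (difference -0.56, limma adjusted p = 0.439).

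**Figure D3:**
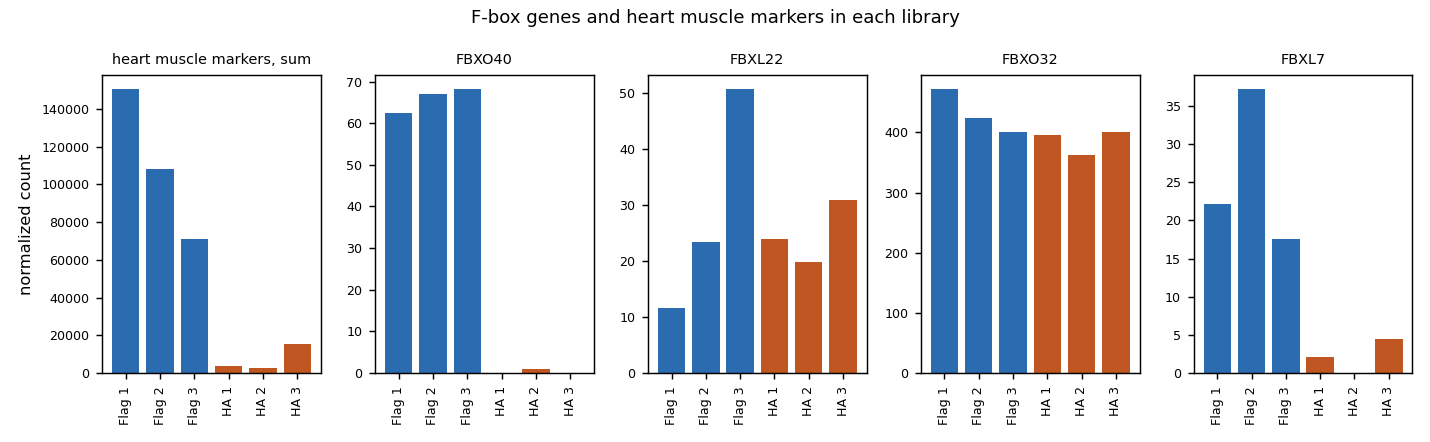
Normalized count in each library (bars) of the summed heart muscle markers and of FBXO40, FBXL22, FBXO32 and FBXL7, each panel with its own axis from 0, Flag-IPs in blue and HA-IPs in orange. FBXO40 and FBXL7 are near 0 in the HA-IPs like the marker sum, FBXL22 and FBXO32 are not, and the marker sum in HA-IP replicate 3 (15410) has no counterpart in FBXO40.

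Of the 11 F-box genes with known cell cycle substrates, FBXL7 alone was called (9.09%, where 12.9% of all genes were), and the median difference of the list was -0.02. The list had 0 calls without Flag-IP replicate 2 or when only genes at a mean of 50 or more were tested, and 3 with the same total per library or with GC and length trends removed. FBXW7, which marks cyclin E and MYC for degradation, had 1043, 841 and 850 normalized counts in the Flag-IPs against 726, 793 and 720 in the HA-IPs. Its groups were apart and its difference of -0.28 fell short of the threshold (SE 0.09, limma adjusted p = 0.0624), while DESeq2 called it (adjusted p = 0.0395). FBXW5, which limits the centriole protein SAS-6, had 2204, 2160 and 2178 against 1969, 2009 and 1884 (difference -0.16, limma adjusted p = 0.0664), and was called under the same total per library (limma adjusted p = 0.0257) and with GC and length trends removed (limma adjusted p = 0.0395). FBXO11 (0.13, limma adjusted p = 0.103), which acts on BCL6, FBXO31 (0.10, limma adjusted p = 0.264), which acts on cyclin D1, and FBXW11 (-0.07, limma adjusted p = 0.419), a beta-TrCP protein, had groups apart and did not pass. FBXO4 (0.07), FBXO7 (0.08), FBXL8 (0.04), FBXW8 (-0.02) and FBXL2 (-0.12), most of them tied to D-type cyclins, had overlapping groups and limma adjusted p-values of 0.471 to 0.929. The F-box genes known from the nervous system, FBXO2, FBXL16 and FBXO41, differed by 0.02 to 0.12 with overlapping groups, at limma adjusted p-values of 0.854 to 0.919.

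Among uncalled genes whose mean reached 100 normalized counts, FBXL15, which targets the ligase SMURF1, had the largest difference (0.40, SE 0.23, limma adjusted p = 0.302). Its values of 209, 358 and 461 in the Flag-IPs against 485, 469 and 350 in the HA-IPs overlapped, and Flag-IP replicate 1 was the low library. FBXL5, the iron sensor that degrades IRP2, had 1119, 883 and 751 against 704, 699 and 754, with a difference of -0.33 (SE 0.12, limma adjusted p = 0.0907) and an adjusted p of 0.0316 in DESeq2. FBXO8, which also carries a Sec7 domain, had 362, 362 and 244 against 263, 272 and 236 (difference -0.31, limma adjusted p = 0.213). FBXL17, which removes faulty BTB dimers, had 864, 812 and 989 against 1028, 1078 and 1011, and its groups were apart (difference 0.23, limma adjusted p = 0.0787).

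By class, the 17 FBXL genes had 0 calls toward the HA-IPs (5.79% over all genes) and 2 toward the Flag-IPs (11.8%, and 7.1% over all genes). The FBXO class had 2 and 1 called of 33, and the FBXW class 0 and 1 of 7, with 6 of the 7 FBXW differences below 0 and a class median of -0.12. The 5 F-box genes that carry the F-box associated domain of glycoprotein receptors, among them FBXO2 and FBXO17, held 0 called genes and differed by -0.14 to 0.12. The 9 further F-box genes in the table that are outside the 67 held 0 called genes in limma. Of these, SKP2, the receptor for p27, differed by -0.01 (limma adjusted p = 0.948) and BTRC, the first beta-TrCP gene, by 0.04 (limma adjusted p = 0.79).

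The genes that work on the ligases were read, with the 9 further F-box genes above, from lists of 131 genes outside the 67. Of the 131 genes, 14 passed toward the HA-IPs (10.7%, where all genes gave 5.79%) and 15 toward the Flag-IPs (11.5%, where all genes gave 7.1%). The lists are described by their counts and medians, and no test compared them with each other. The shares of all genes set beside the lists make no allowance for coding length. Of genes with a mean of at least 50, 13.6% of those of 1500 nt or more passed toward the HA-IPs. Under 750 nt, 17.5% passed toward the Flag-IPs. In NEDD8 conjugation, 0 of 10 genes passed toward the HA-IPs and 2 toward the Flag-IPs, and 10 of 10 differences were below 0 (median -0.11). The 2 calls of 10, where all genes gave 7.1%, fell to 1 without Flag-IP replicate 2 or any of the HA-IPs. DCUN1D1, a co-E3 that helps load NEDD8 on cullins, had 870, 833 and 673 normalized counts in the Flag-IPs against 514, 541 and 514 in the HA-IPs (difference -0.59, limma adjusted p = 0.00334), and its relative DCUN1D5 differed by -0.25 (limma adjusted p = 0.0214). NEDD8 itself was not called (difference -0.12, limma adjusted p = 0.456). In the list of the COP9 signalosome and deneddylation, 0 and 2 of 10 were called, and 9 of 10 differences were below 0 (median -0.18). Without Flag-IP replicate 3 the list had 5 calls. The subunit genes COPS2 (-0.61, limma adjusted p = 0.00641) and COPS6 (-0.42, limma adjusted p = 0.000982) were the called ones. COPS6 had 5610, 5721 and 5225 in the Flag-IPs against 3897, 4266 and 4194 in the HA-IPs, with no overlap, while the catalytic subunit gene COPS5 did not pass (-0.18, limma adjusted p = 0.063).

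The list of E2 enzymes and partner E3 enzymes, which also holds ARIH1 and ARIH2, had 0 calls toward the HA-IPs and 4 toward the Flag-IPs among 10 genes (40.0%, where all genes gave 7.1%) and a median difference of -0.30. Without Flag-IP replicate 2 it had 1 call. UBE2D3, an E2 that starts ubiquitin chains, had 6631, 5485 and 4541 normalized counts in the Flag-IPs against 3271, 3400 and 3352 in the HA-IPs (difference -0.72, limma adjusted p = 0.00183). UBE2D1 differed by -0.53 (limma adjusted p = 0.00906). CDC34, the E2 that extends chains on SCF substrates, missed the threshold (-0.28, limma adjusted p = 0.0724). The list of cullin exchange and inhibition had 2 of 3 genes called higher in the HA-IPs, where 5.79% of all genes were. These calls fell to 0 without Flag-IP replicate 2 or HA-IP replicate 1, and to 1 without Flag-IP replicate 1, HA-IP replicate 2 or HA-IP replicate 3, under quantile normalization and under the same total per library. CAND1, the factor that exchanges F-box receptors on CUL1, had 20536, 21352 and 24226 in the Flag-IPs against 27384, 26245 and 28014 in the HA-IPs (difference 0.31, limma adjusted p = 0.00993), and CAND2 differed by 0.22 (limma adjusted p = 0.0394).

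The list of CUL2 and CUL5 adaptors and receptors held 28 genes, of which 0 passed toward the HA-IPs and 5 toward the Flag-IPs (17.9%, where all genes gave 7.1%), with a median of -0.05. Its calls fell to 1 without Flag-IP replicate 2, to 2 without HA-IP replicate 1 and to 3 without HA-IP replicate 2. PCMTD1, a CUL5 receptor, differed by -0.64 (limma adjusted p = 0.0084) and KLHDC3, a CUL2 receptor that reads C-terminal degrons, by -0.42 (limma adjusted p = 0.00245). The CUL3 receptors held 6 and 1 called of 33, with 29 of 33 differences above 0 and a median of 0.11. Toward the HA-IPs that is 18.2% (5.79% over all genes), and its 7 calls fell to 1 without Flag-IP replicate 2 or HA-IP replicate 1, to 3 without HA-IP replicate 2 and to 4 without HA-IP replicate 3. KLHL13, which with CUL3 controls Aurora B in mitosis, had 1005, 985 and 989 normalized counts in the Flag-IPs against 1272, 1137 and 1211 in the HA-IPs (difference 0.28, limma adjusted p = 0.0152). KLHL20, which acts on the kinase DAPK1, differed by 0.26 (limma adjusted p = 0.0132), and IVNS1ABP, called in the other direction, by -0.58 (limma adjusted p = 0.00225). The CUL4 list held 5 and 1 called of 26, with a median of 0.04. Toward the HA-IPs that is 19.2%, and its 6 calls fell to 1 without Flag-IP replicate 2 and to 3 without HA-IP replicate 2 or HA-IP replicate 3. DTL, the receptor for the replication licensing factor CDT1, had 4588, 4310 and 4540 in the Flag-IPs against 5615, 5211 and 5361 in the HA-IPs (difference 0.27, limma adjusted p = 0.00652). The adaptor DDB1 differed by 0.27 (limma adjusted p = 0.00725) and DCAF6 by -0.35 (limma adjusted p = 0.00389). Of the 3 CUL7 partners, OBSL1 was called (0.33, limma adjusted p = 0.0122), where 12.9% of all genes were. The list had 0 calls without Flag-IP replicate 2, HA-IP replicate 1 or HA-IP replicate 2, and 2 calls without Flag-IP replicate 3.

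**Figure D4:**
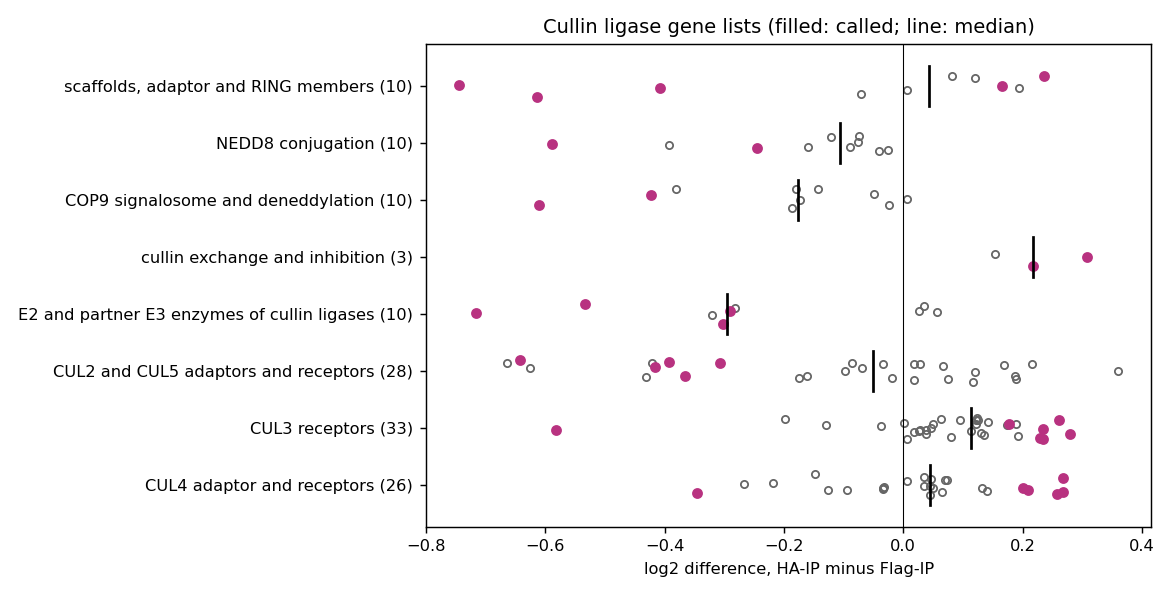
Difference between the groups (log2, HA-IP minus Flag-IP) of each gene in 8 lists of cullin ligase genes, with the number of genes in the table in parentheses, called genes filled and a black line at the median. NEDD8 conjugation, the COP9 signalosome and the list of E2 and partner E3 enzymes have medians of -0.11, -0.18 and -0.30, while cullin exchange and the CUL3 receptors have medians of 0.22 and 0.11.

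The direction of the difference went with coding length, in these genes as in the whole table. Over the 58 genes whose mean reached 50 normalized counts, Spearman's rho between the difference and the coding length was 0.396, and over all 12129 such genes with a coding length it was 0.441. These are descriptions across genes, which are not independent and share libraries. RBX1, RNF7 and SKP1 have coding lengths of 324, 339 and 489 nt, and the 4 members under 750 nt among these 58 had a median difference of -0.51 with 3 called higher in the Flag-IPs. All genes under 750 nt at that level had a median of -0.16, and 17.5% of them were called higher in the Flag-IPs. At 1500 nt or more, 4 of 30 members passed toward the HA-IPs (13.3%, and 13.6% of all genes that long). Over the 67 genes and the pathway lists together, the 18 genes called higher in the HA-IPs had coding lengths of 1704 to 6807 nt (median 2282), and the 22 called higher in the Flag-IPs of 324 to 2853 nt (median 1026). With trends of GC content and transcript length removed in each library, RBX1 (-0.59), RNF7 (-0.61), SKP1 (-0.46), CUL1 (0.17) and CUL2 (0.24) were still called. That correction used transcript length and not coding length, whose part in these differences was not tested.

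**Figure D5:**
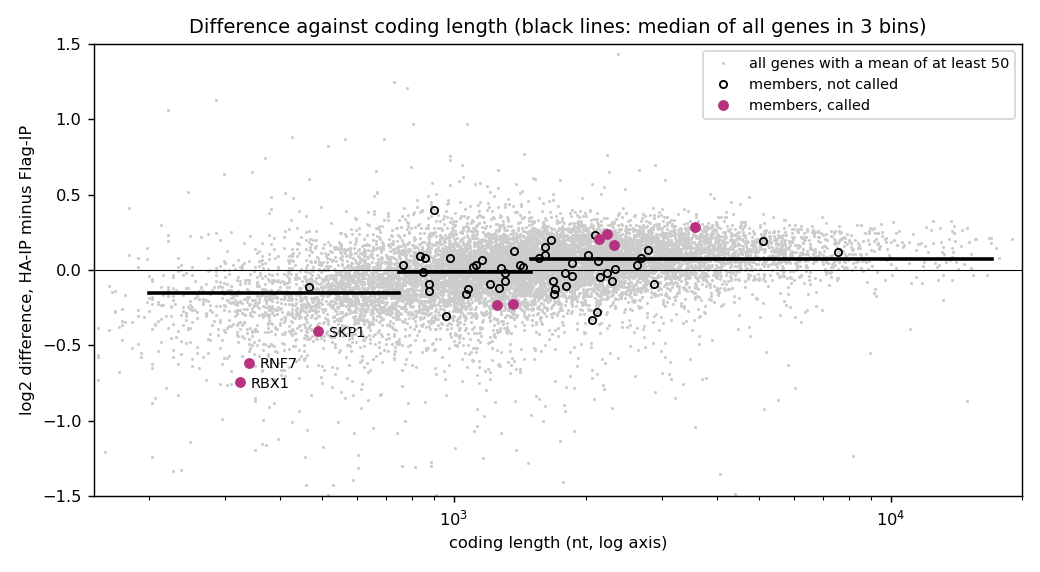
Difference between the groups (log2, HA-IP minus Flag-IP) against coding length in nt (log axis) for all genes whose mean reached 50 normalized counts (grey; the axis leaves out the most extreme points), with members as circles, called members filled and black lines at the median of all genes under 750 nt (-0.16), from 750 to under 1500 nt (-0.01) and at 1500 nt or more (0.07). RBX1, RNF7 and SKP1 are the shortest called members and lie below the median line of their bin.

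Some values can hold reads of neighbours, since the sources used here do not say whether counting used the strand. SKP1 overlaps TCF7 on the opposite strand, CUL2 overlaps CREM, FBXL14 overlaps WNT5B and CUL7 overlaps KLC4. CUL1 and FBXW2 overlap genes at means of 59.2 and 74.4 normalized counts, whereas FBXO40, FBXL7, RBX1 and RNF7 overlap no gene of the table. Among genes that were not called, FBXO11 overlaps MSH6 (mean 21261), FBXL2 overlaps UBP1 (2376) and FBXO2 overlaps FBXO44 (358), on the opposite strand. FBXO10 was listed with 2 identifiers, of which the lower one (mean 15.4 normalized counts) overlaps the main gene (401) and TOMM5, so its reads are uncertain. Pseudogenes of SKP1 (3), RBX1 (2) and RNF7 (1) are annotated, with 0 of them in the table, and reads of these genes that match a copy equally well may have been lost.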

How the data were processed

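RNA from 3 Flag-IPs and 3 HA-IPs was sequenced. The authors used Trimmomatic 0.36 for trimming and STAR 2.5.2b for mapping to GRCh38, and left out genes with few reads, and the processing notes name featureCounts of Subread 1.5.2 as the counter. The deposited values are a normalized signal per gene and library, which is the read count after division by the DESeq2 size factor of the library. Whole reads were recovered for 100% of values (within 6.43e-05 of a read). The deposited table also holds the fold changes and adjusted p-values of the authors, which were not used.

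Members were found by symbol. Members and lists were chosen with earlier results of these data known. limma 3.58.1 (R 4.3.3) was fitted on log2(normalized count + 1) of all 16834 genes with a variance trend, group as the only term, two-sided, with Benjamini-Hochberg adjustment. Exact permutation tests of 3 against 3 cannot go below 0.1 and were not used. edgeR 4.0.16 and DESeq2 1.42.0 on recovered reads, other scalings, pseudocounts, filters, a replicate block, removal of GC and length trends (splines of 5 degrees of freedom, MASS 7.3.60.0.1) and each library left out served as alternatives. limma as designed, without the trend, with the block, with trends removed and with quantile normalization, and edgeR and DESeq2, were tested on simulated data. The other alternatives were not. Lengths came from GENCODE release 44, which holds 99.1% of the identifiers, and promoters from RefSeq (GRCh38.p14). Python 3.11.15, scipy 1.17.1 and matplotlib 3.10.9 were used. The depth of 23174532 to 44134833 reads limits only the lowest genes.

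Named genes were all scaffold, adaptor and RING genes, all called members, 3 F-box lists (cell cycle, muscle, nervous system), the 5 highest and 3 lowest levels per kb, the 5 largest uncalled differences above a mean of 100 and, per pathway list, the 2 largest called differences in each direction. NEDD8, COPS5, CDC34, SKP2, BTRC and the marker genes were named after their values were seen.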

Additional observations from a re-analysis of the deposited data

How the results depend on the processing

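The 67 genes gave 4 calls toward the HA-IPs and 7 toward the Flag-IPs, and all genes 2171 calls. The counts for the 67 genes and for all genes stayed within 1.5 times of these under pseudocounts of 0.1 and 10, a mean of at least 50, quantile normalization, the same upper quartile, edgeR on the recovered reads (4 and 7, with 2131 over all genes), DESeq2 on them (3 and 9, with 2274) and the removal of GC and length trends (5 and 10). Scaling to the same total gave 2 toward the HA-IPs and 9 toward the Flag-IPs. It moved the split of all calls from 975 and 1196 to 471 and 1576. limma without the trend left 0 and 1 calls, with 188 over all genes and 0 in the pathway lists outside the 67. An adjusted p of at most 0.01 left 1 and 3, with 704 over all genes, and a minimum absolute log2 difference of 1 left 0 and 2, with 462. Leaving out 1 library gave 1 to 7 calls toward the HA-IPs, 2 to 10 toward the Flag-IPs and 620 to 3059 over all genes, with the lowest counts without Flag-IP replicate 2 (1 and 2) and the highest without Flag-IP replicate 3 (7 and 10). RBX1, FBXO38 and FBXO40 passed in each fit that left out a library. limma without the trend lost RBX1 (adjusted p = 0.112) and FBXO38 (adjusted p = 0.0854). The cause of the shifts in the counts was not tested.

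With the replicate number as a block, 2 genes were called toward the HA-IPs (CUL1 and FBXO42 were lost), 7 toward the Flag-IPs and 1662 over all genes, and the list of cullin exchange and inhibition had 1 call in place of 2. The numbers were not taken to pair the samples, since the same-numbered libraries correlated at -0.156, 0.0306 and -0.31 in their deviations from the group means. No named gene that was called changed direction under any alternative. Depth limits FBXL7, FBXO40, FBXL13 and the other members with a mean under 50, and 3 libraries per group limit the rest.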
